A study of Mus musculus with 18 samples.

Results

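The genes described here are 52 genes of DNA replication and repair, chosen by name from a hand-written list and looked up in the deposited table of 27179 genes. All 52 were found, and all 52 were among the 14353 genes with a mean normalized count of at least 10 over the 18 libraries, the limit for a test. They were sorted by what their proteins do into 8 roles, from the licensing of replication origins to the joining of broken ends. The choice used names only and no measured value, but it was made with earlier results of these data known.

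RNA was sequenced from cultured bone marrow mesenchymal stem cells (MSCs) of C57 black mice in 3 groups of 6 libraries, namely young, old and rejuvenated old MSCs. Young MSCs came from mice of 6 weeks and old MSCs from mice of 18 to 24 months, and cells of passage 2 to 5 were used. Old MSCs were kept for 7 days at 100000 cells in a well, either by themselves or, as rejuvenated old MSCs, across a Transwell membrane with pores of 0.4 µm from young MSCs. Old MSCs facing a layer of old cells were not analysed here, so the presence of a second cell layer and the age of that layer cannot be told apart. The labels call the 6 libraries of a group biological replicates. The sources used here do not say whether they came from separate mice or from 1 stock of cells, so the p-values measure the spread between these libraries only.

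Before a cell copies its DNA, the origin recognition complex, Cdc6 and Cdt1 load the ring-shaped MCM2-7 helicase onto replication origins, and geminin blocks this loading once copying has begun. Cdc45, the GINS complex and Mcm10 then activate the helicase, the polymerases copy the strands on the sliding clamp Pcna, and ribonucleotide reductase, thymidylate synthase and thymidine kinase supply the building blocks. Many of these genes are switched on by E2F transcription factors late in the G1 phase, and the kinases Atr, Atm, Chek1 and Chek2 hold the cell cycle when forks stall or strands break. In bulk RNA from a culture, fewer cells in S phase and less RNA per such cell cannot be told apart.

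The recovered depth ran from 22936251 to 29559194 reads per library, and differed between groups, with 22936251 to 25648769 in young and 24965971 to 29559194 in old MSCs. Several features of the libraries touch every comparison with young MSCs. The study describes the mice as male, but the young libraries held at most 2 reads of each of 4 Y-linked genes (Kdm5d, Eif2s3y, Uty and Ddx3y), against 529 to 2496 in the other 12. The X-linked transcript Xist had 19 to 40 reads in young, 2 to 15 in old and 5 to 10 in rejuvenated old libraries. The sex of the mice was not tested. Of 14 macrophage and monocyte markers, 13 were lower in young than in old MSCs, with a summed level of 956 to 1072 normalized counts in young, 16566 to 20601 in old and 16592 to 20189 in rejuvenated old libraries. Ptprc and Adgre1, which mark blood cells and macrophages, had no read in any young library. All 13 MSC markers were detected in young MSCs, and 5 of them were higher and 8 lower than in old MSCs. Over all genes tested 41.6% were higher and 44.1% were lower. Thy1, among the 5, had at most 3 reads in every old library. Whole chromosomes also shifted between young and old MSCs, as described with that comparison. Rejuvenated old replicate 1 stood apart from its group, with 402 normalized counts of the progenitor marker Cd34 against 24.2 to 41.9 in the other 5, 19.4 to 28.0 in old and 6787 to 7191 in young libraries. It also held 21.6 normalized counts of Thy1 against at most 0.951 in the other 5. These levels of Cd34 and Thy1, both of which were higher in young MSCs, were 5.73% and 10.9% of the young means, and whether this library held RNA of young cells was not tested. The counts of members called in rejuvenated old against old MSCs are therefore given with and without it. Other counts that use rejuvenated old MSCs include it, apart from the ranges that leave out 1 library at a time.

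Genes of DNA replication and repair were more often higher than lower in rejuvenated old compared with old MSCs. Of the 52 members, 23 (44.2%) were higher and 4 (7.69%) were lower, and 25 were not called, with limma on log2(normalized count + 1) and a Benjamini-Hochberg adjusted p under 0.05 over all genes tested. Over all 14353 genes tested, 21.0% were higher and 20.6% were lower. The counts by role given below are of 4 to 12 genes each and stand against the same shares. The members' median log2 fold change was 0.12, against 0.0081 over all genes. The differences were small, and on the log2 scale they ran from -0.63 for E2f2 to 0.48 for Gmnn. Without rejuvenated old replicate 1, 20 members were higher and 4 were lower, with a median of 0.11. The calls of Rfc4, Rrm1 and Chek1 were the 3 lost, and these and that of Rpa2 were also lost without some other single libraries.

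For 9 members (17.3%) every rejuvenated old library lay above every old library, against 10.4% of all genes tested. These were Gmnn, Gins2, Rrm2, Tyms, Tk1, Ccne1, Rad51ap1, Atr and Xrcc6. For 2 members (3.85%), Rpa1 and E2f2, every rejuvenated old library lay below every old one, against 11.6% of all genes.

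**Figure D1:**
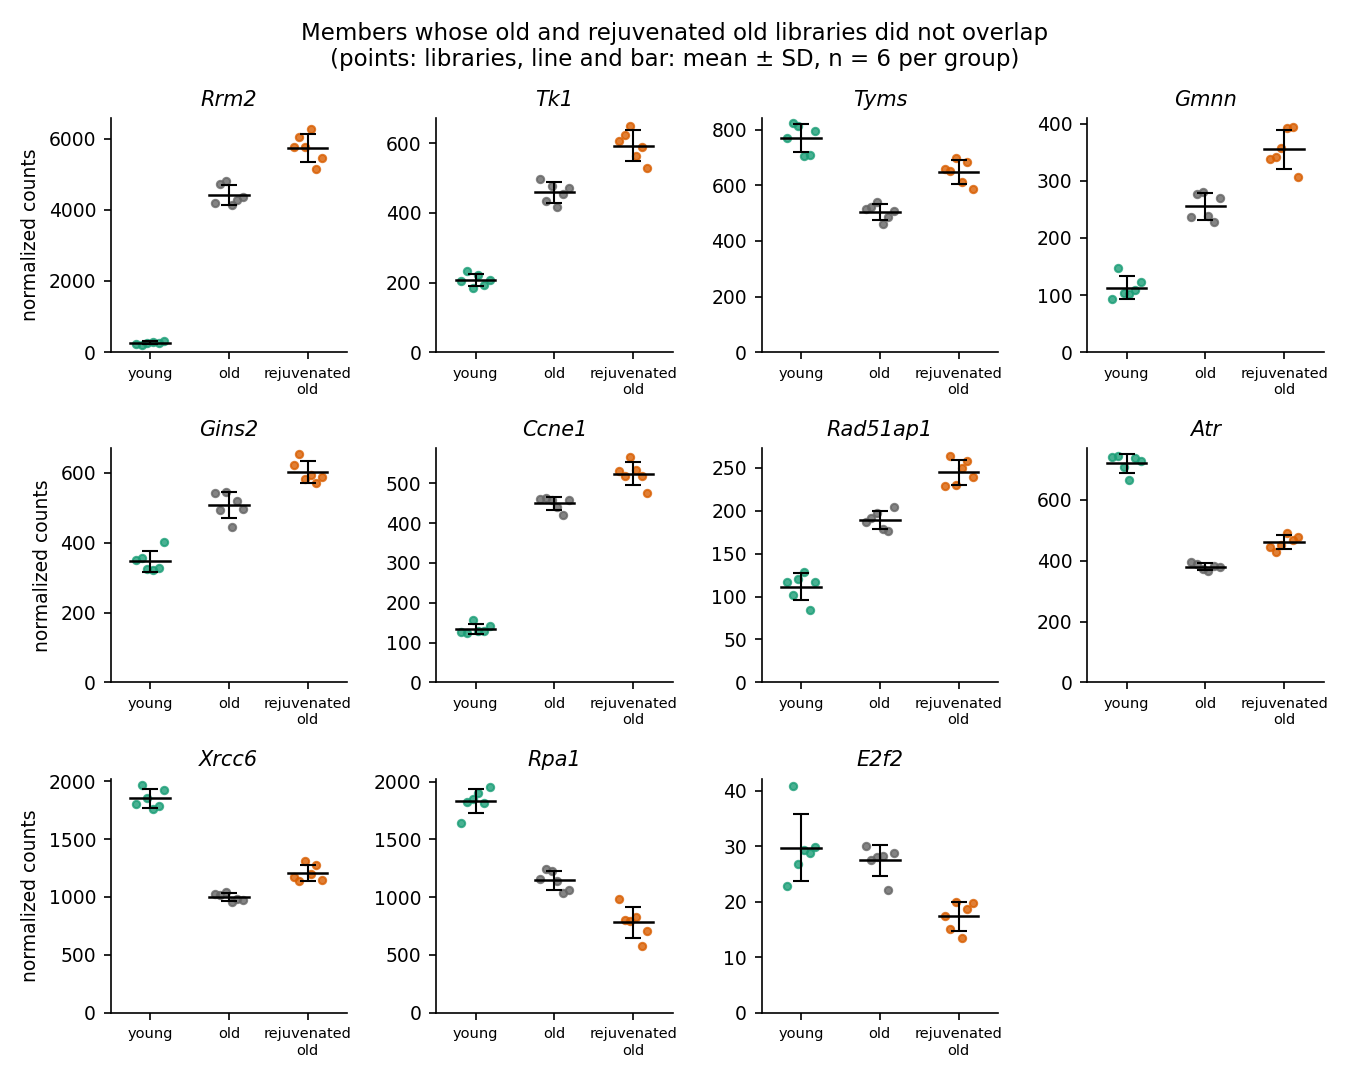
Normalized counts (y axes, from 0) of the 11 members whose old and rejuvenated old libraries did not overlap, for young, old and rejuvenated old MSCs (x axes). Points are libraries and the line and bar are the mean ± SD of 6 libraries. In 9 panels the rejuvenated old points sit above the old points, and in those of Rpa1 and E2f2 they sit below, while the young points lie below both groups in 6 panels (Rrm2, Tk1, Gmnn, Gins2, Ccne1 and Rad51ap1).

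The supply of deoxynucleotides was the role in which all 4 members were higher, with a median log2 fold change of 0.37. Rrm2, the small subunit of ribonucleotide reductase and the one whose level follows the cell cycle, lies on chromosome 12 (mm10, 24708254 to 24714146, plus strand). Its lowest, median and highest normalized counts were 4143, 4319 and 4797 in old MSCs and 5143, 5761 and 6271 in rejuvenated old MSCs. The means were 4415 ± 276 and 5735 ± 404 (SD, n = 6), a log2 fold change of 0.38 (limma, adjusted p = 0.00053). Tk1, the thymidine kinase of the salvage pathway, had 418, 463 and 498 in old and 528, 598 and 649 in rejuvenated old MSCs. The groups did not overlap, and the log2 fold change was 0.37 (adjusted p = 6.8e-05). Tyms, which makes thymidylate, rose from 504 ± 28.2 to 647 ± 42.0 normalized counts (SD, n = 6), with a log2 fold change of 0.36 (limma, adjusted p = 1.2e-05). Rrm1, the large reductase subunit, differed least, with 2876, 2955 and 3208 in old against 2947, 3280 and 3477 in rejuvenated old MSCs, groups that overlapped. Its log2 fold change of 0.11 (adjusted p = 0.036) was among the calls lost without rejuvenated old replicate 1.

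Of the 11 licensing genes 4 were higher and none was lower, with a median log2 fold change of 0.09. Gmnn encodes geminin, the inhibitor of licensing. Its lowest, median and highest normalized counts were 228, 254 and 281 in old and 307, 350 and 395 in rejuvenated old MSCs. This was the largest rise among the members, a log2 fold change of 0.48 with a standard error of 0.10 (limma, adjusted p = 0.00044). Cdc6, a loader of the helicase, rose from 138 ± 26.9 to 183 ± 23.5 normalized counts (SD, n = 6), with a log2 fold change of 0.42 (limma, adjusted p = 0.011). Its groups overlapped, since the highest old library had 181 and the lowest rejuvenated old library 157. Cdt1, the partner of Cdc6 that geminin binds, had 430 ± 41.1 in old and 471 ± 56.1 in rejuvenated old MSCs (SD, n = 6) and was not called.

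The 6 subunits of the MCM2-7 ring did not all pass the test in rejuvenated old against old MSCs. Mcm3 rose from 1070 ± 67.6 to 1232 ± 144 normalized counts and Mcm6 from 1498 ± 155 to 1724 ± 142 (SD, n = 6), each with a log2 fold change of 0.20 (limma, adjusted p = 0.0089 and 0.014). Both pairs of groups overlapped. Mcm2 (log2 fold change 0.06), Mcm5 (0.06), Mcm7 (0.04) and Mcm4 (-0.09) were not called, nor were the origin recognition subunits Orc1 (-0.12) and Orc6 (0.09). In Mcm2, Mcm3, Mcm5 and Mcm6 the highest value of the rejuvenated old group was that of replicate 1, at 1299, 1503, 1061 and 1892 normalized counts.

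**Figure D2:**
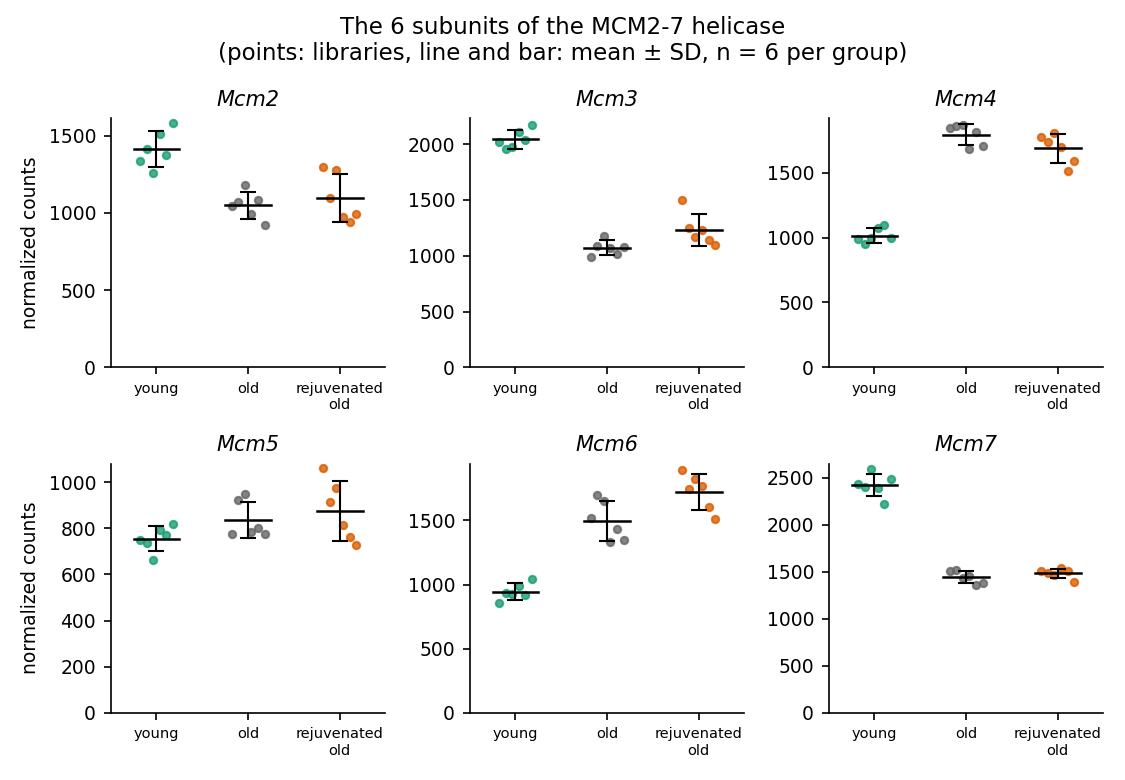
Normalized counts (y axes, from 0) of the 6 subunits of the MCM2-7 helicase in young, old and rejuvenated old MSCs (x axes). Points are libraries and the line and bar are the mean ± SD of 6 libraries. Old and rejuvenated old points overlap in all 6 panels, while young points lie above the old ones for Mcm2, Mcm3 and Mcm7 and below them for Mcm4 and Mcm6.

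Among the 4 genes of helicase activation, Gins2 and Cdc45 were higher. Gins2, a GINS subunit, had 444, 508 and 546 normalized counts in old and 570, 591 and 653 in rejuvenated old MSCs, groups that did not overlap, with a log2 fold change of 0.25 (limma, adjusted p = 0.0020). Of its exon bases 67.3% are shared with Gse1 on the opposite strand, and since the strand setting of the counting was not stated, its reads may be split. Cdc45 rose from 282 ± 25.7 to 337 ± 20.1 (SD, n = 6), with a log2 fold change of 0.26 (limma, adjusted p = 0.0062). Gins1 (0.17) and Mcm10 (0.11) were not called.

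At the replication fork 5 of 12 members were higher and 1 was lower. Pcna, the sliding clamp, had 2417, 2561 and 2612 normalized counts in old and 2597, 2822 and 2906 in rejuvenated old MSCs. The highest old library lay just above the lowest rejuvenated old one, and the log2 fold change was 0.14 (limma, adjusted p = 0.0020). Pold1, the catalytic subunit of polymerase delta, rose by 0.22 and Lig1, which seals the lagging strand, also by 0.22 on the log2 scale (adjusted p = 0.0036 and 0.0042). The clamp loader subunit Rfc4 (0.20) and the single-strand binding subunit Rpa2 (0.16) were called at an adjusted p of 0.041 and 0.026. Pola1, Prim1, Pole, Rfc3, Rfc5 and Fen1 were not called, at log2 fold changes of 0.03 to 0.16.

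Rpa1, the large subunit of replication protein A, which coats single-stranded DNA, fell while its partner Rpa2 rose. The call of Rpa2 was lost without some single libraries. Rpa1 lies on chromosome 11 (mm10, 75300259 to 75348454, minus strand). It had 1041, 1151 and 1241 normalized counts in old and 575, 798 and 989 in rejuvenated old MSCs. The groups did not overlap, and the means of 1146 ± 81.8 and 782 ± 137 (SD, n = 6) gave a log2 fold change of -0.57 with a standard error of 0.08 (limma, adjusted p = 1.3e-05). The small subunit Rpa3, which was not among the 52, rose from 600 ± 44.0 to 866 ± 87.1 (SD, n = 6), with a log2 fold change of 0.53 (limma, adjusted p = 2.6e-06). The subunits of this trimer thus moved in opposite directions in rejuvenated old MSCs.

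The 4 regulators of the G1/S transition did not move together. Ccne1, cyclin E1, which drives entry into S phase, had 419, 458 and 462 normalized counts in old and 475, 525 and 565 in rejuvenated old MSCs, groups that did not overlap, with a log2 fold change of 0.22 (limma, adjusted p = 0.0060). E2f2, an activator of S phase genes, had the lowest level of all members. Its counts were 22.1, 28.1 and 30.1 in old and 13.5, 18.1 and 20.0 in rejuvenated old MSCs, from 14 to 31 reads a library. They did not overlap, and the log2 fold change was -0.63 with a standard error of 0.16 (limma, adjusted p = 0.0023). E2f1 (0.04) and Ccne2 (-0.10) were not called.

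Of 9 members of recombination, crosslink and mismatch repair, 4 were higher and 1 was lower. Rad51ap1, a gene of homologous recombination, had 177, 189 and 204 normalized counts in old and 229, 244 and 263 in rejuvenated old MSCs. Its log2 fold change was 0.37 (limma, adjusted p = 0.0016). The recombination mediator Brca2 rose by 0.32, the crosslink repair gene Fancd2 by 0.41 and the exonuclease Exo1 by 0.37 on the log2 scale, with overlapping groups (adjusted p = 0.0051, 0.011 and 0.013). Msh6, a mismatch recognition subunit, fell from 1620 ± 66.3 to 1460 ± 55.0 normalized counts (SD, n = 6), a log2 fold change of -0.15 (limma, adjusted p = 0.00086). Brca1, Rad54l, Fanca and Blm were not called, at -0.02 to 0.22.

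Of the 4 checkpoint kinases, Atr and Chek1, which act in 1 pathway at stalled forks, were higher. Atr had 364, 380 and 397 normalized counts in old and 428, 460 and 491 in rejuvenated old MSCs, without overlap, and a log2 fold change of 0.27 (limma, adjusted p = 3.9e-05). Chek1 was called at 0.20 (adjusted p = 0.043). Chek2, the kinase downstream of Atm, was lower, with 489, 526 and 539 in old against 441, 453 and 504 in rejuvenated old MSCs and a log2 fold change of -0.16 (adjusted p = 0.0090). Atm itself was not called (-0.02).

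In end joining and break sensing, Xrcc6 and Xrcc5, the subunits of the Ku ring that binds broken ends, differed in their call. Xrcc6 had 961, 1001 and 1045 normalized counts in old and 1141, 1187 and 1308 in rejuvenated old MSCs, without overlap, and a log2 fold change of 0.27 (limma, adjusted p = 1.2e-05). Xrcc5 was not called, at -0.08. Prkdc, the kinase that Ku recruits (-0.12), and the strand break sensor Parp1 (0.01) were not called either.

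**Figure D3:**
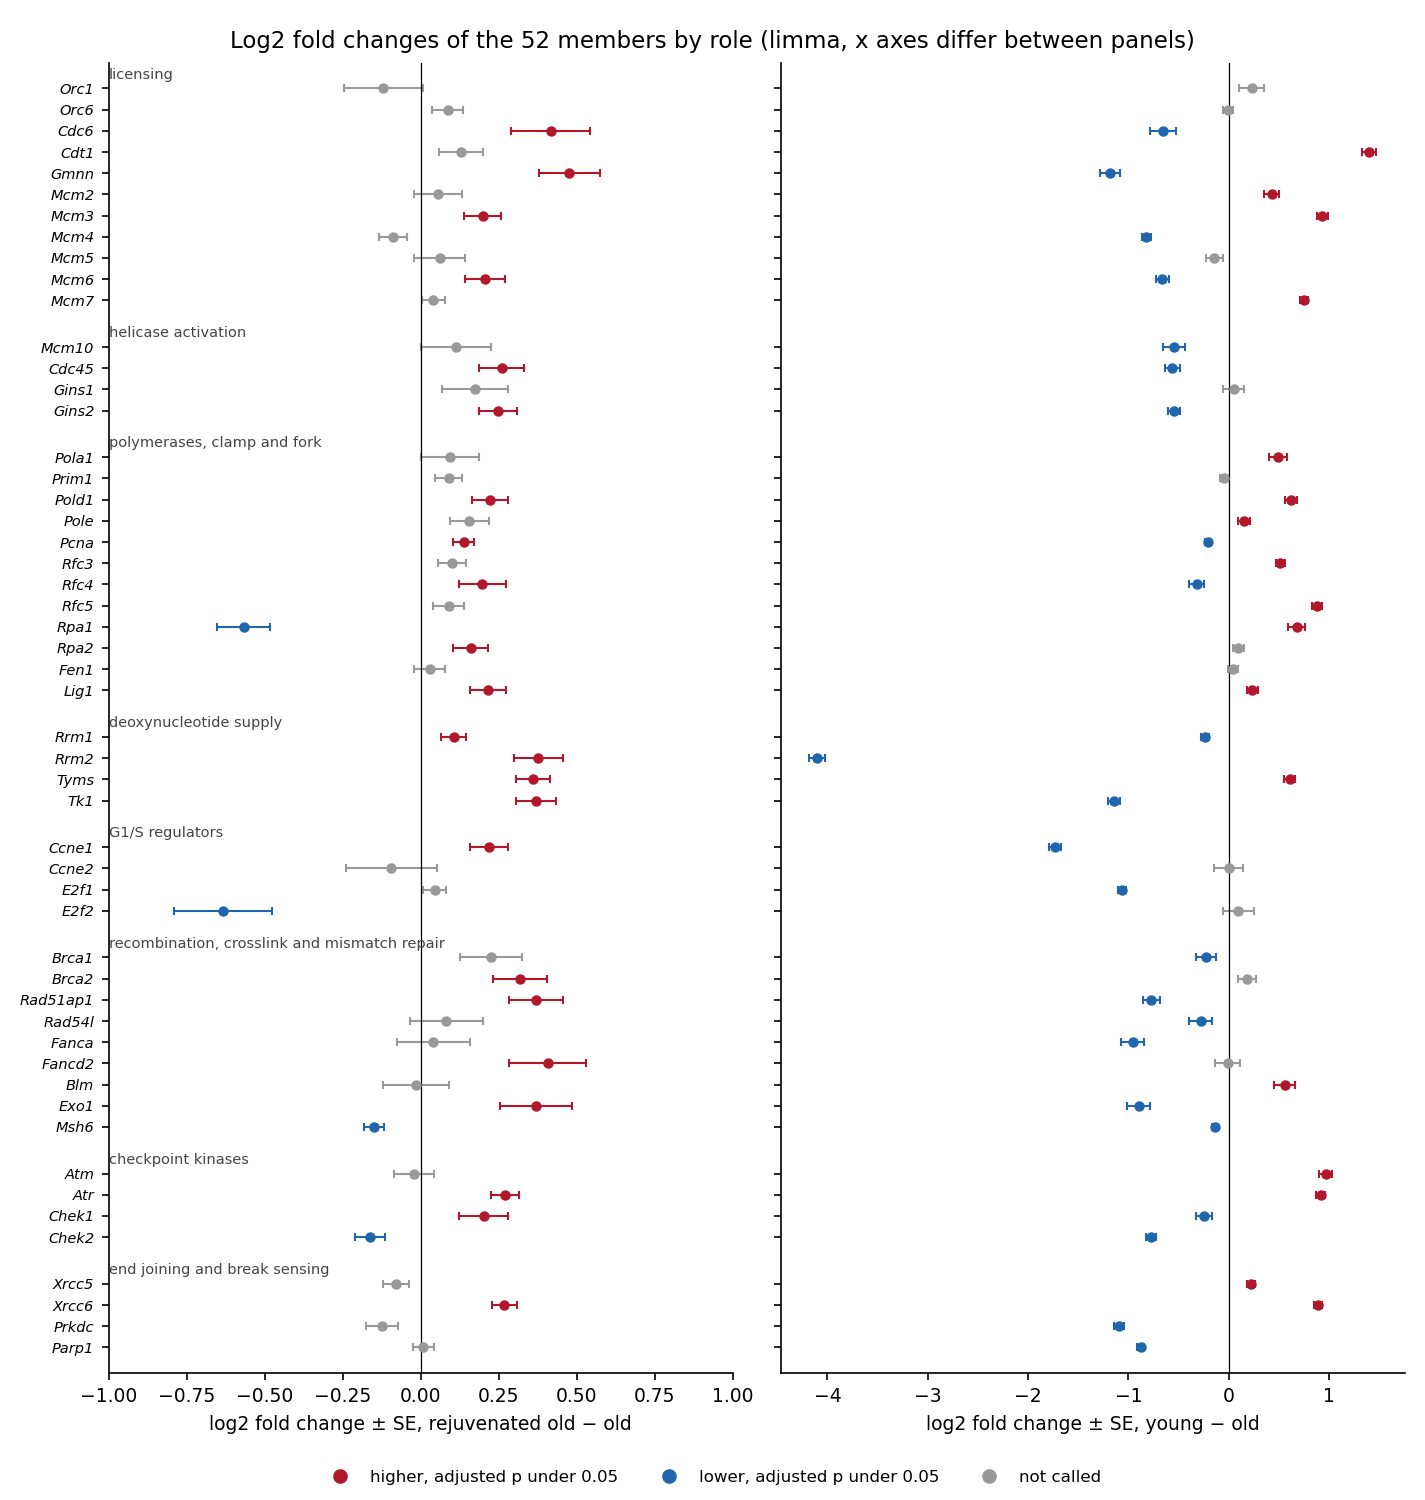
Log2 fold changes (x axes) with standard errors of the 52 members (y axis, grouped by role), for rejuvenated old minus old MSCs on the left and young minus old MSCs on the right. Red points were higher and blue points lower at an adjusted p under 0.05, and grey points were not called. On the left 23 points are red and lie under 0.5, and on the right 17 are red and 24 are blue, with Rrm2 at -4.10.

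The shift toward higher levels was seen in 5 of the 6 rejuvenated old libraries, to a varying degree. The median over members of the difference from the mean of old MSCs, on the log2 scale, was 0.27, 0.13, 0.16, 0.15, 0.10 and 0.04 in replicates 1 to 6 of rejuvenated old MSCs. In old libraries it ran from -0.06 to 0.06, so replicate 6 lay within the range of old MSCs and the other 5 above it. Over all genes tested the same median lay between -0.02 and 0.01 in every library. In replicate 1, 38 of the 52 members were above all old libraries and 6 were below, while in replicate 6 these numbers were 17 and 8. The same numbers over all genes tested are not given here, so these describe the members only.

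**Figure D4:**
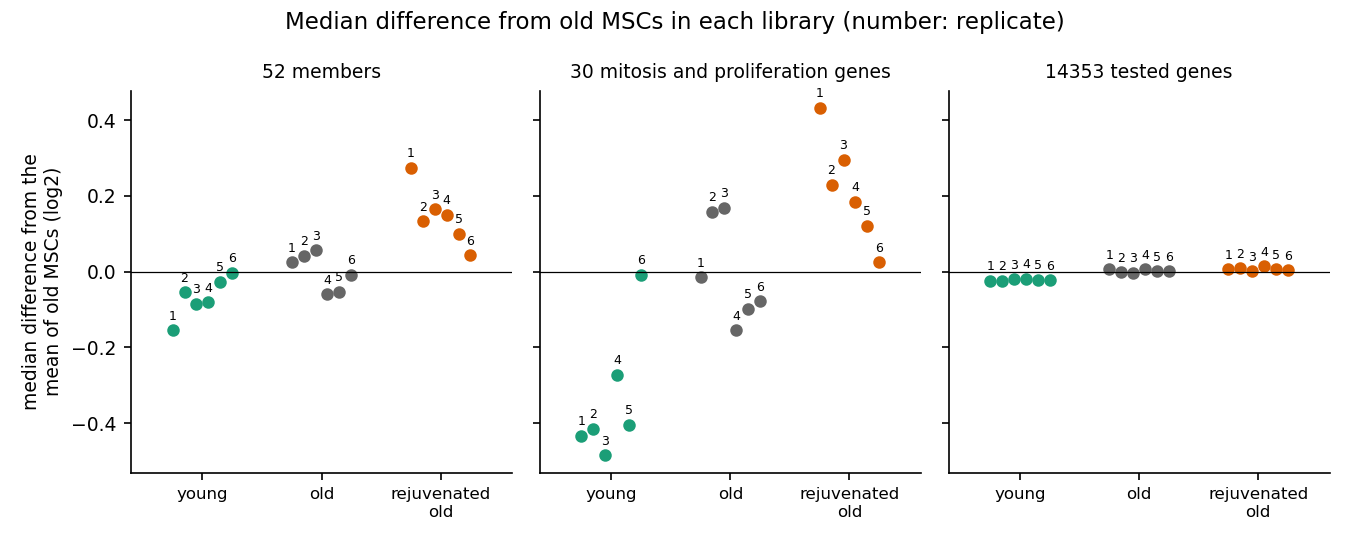
Median difference from the mean of old MSCs on the log2 scale (y axis) in each library (points, with the replicate number) of young, old and rejuvenated old MSCs (x axes). The panels show the 52 members, 30 genes of mitosis and proliferation and all 14353 genes tested. For members the rejuvenated old points run from 0.04 to 0.27 and the old ones from -0.06 to 0.06, and for all genes every point lies near 0. For the genes of mitosis and proliferation the rejuvenated old points run from 0.02 to 0.43 and the old ones from -0.15 to 0.17.

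Genes with related functions were taken from 4 further lists. Of 46 tested genes of a list of other replication genes, 26 (56.5%) rose and 1, Rrm2b, fell in rejuvenated old against old MSCs, with a median log2 fold change of 0.17. Over all genes tested 21.0% were higher and 20.6% were lower. The largest rises in it were those of Rpa3 and of the helicase Recql4, from 97.2 ± 8.63 to 142 ± 40.2 normalized counts (SD, n = 6), 0.50 on the log2 scale (limma, adjusted p = 0.0057). Of 79 other repair genes, 20 (25.3%) were higher, a share near that of all genes, and 7 (8.86%) were lower, with a median of 0.06. In it, Bard1, the partner of Brca1, rose by 0.45 and the glycosylase Nthl1 by 0.43, while Rev3l, the catalytic subunit of a translesion polymerase, and the damage-binding Ddb1 fell by 0.36 and 0.28 on the log2 scale.

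Of 30 genes of mitosis and proliferation, 13 (43.3%) rose and none fell in rejuvenated old against old MSCs, with a median of 0.21. The kinetochore gene Ndc80 (0.46), the ubiquitin-conjugating enzyme Ube2c (0.44), the mitotic kinase Cdk1 (0.42) and the topoisomerase Top2a (0.24) were among them. The list's median difference from old MSCs was 0.43, 0.23, 0.29, 0.18, 0.12 and 0.02 in replicates 1 to 6 of rejuvenated old MSCs. In old libraries it ran from -0.15 to 0.17, so replicates 5 and 6 lay within the range of old MSCs. Mki67, the usual marker of cycling cells, had 959 ± 133 normalized counts in old and 1056 ± 145 in rejuvenated old MSCs (SD, n = 6) and was not called (limma, adjusted p = 0.28). Of 30 genes of G1/S control, 7 (23.3%) were higher and 5 (16.7%) were lower, with a median of 0.03, shares near the 21.0% and 20.6% of all genes. E2f5 (0.26) and the inhibitor Cdkn1b (0.25) had the largest rises, and the inhibitor Cdkn2b (-0.43) and the cyclin Ccnd2 (-0.25) the largest falls among those called. The tumour suppressor Rb1 was lower (-0.19), Trp53 (0.14) and its target Cdkn1a (0.10) were higher, and Cdkn2a (-0.05) was not called.

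Between young and old MSCs the differences were larger and went both ways. Of the 52 members, 17 (32.7%) were higher in young MSCs and 24 (46.2%) were lower, while over all genes tested 41.6% were higher and 44.1% were lower. The medians were -0.03 for members and -0.02 for all genes. When each library was scaled to the same total, 21 members (40.4%) were higher and 21 were lower, against 45.2% and 40.5% of all genes, and the medians were 0.047 and 0.053. With either scaling the share of members that were higher lay below that of all genes, and the share that were lower lay near it. The sex-linked and macrophage transcripts named above differed between the same groups, and their part in these results was not tested.

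Rrm2 had by far the largest difference. It had 199, 251 and 324 normalized counts in young MSCs against 4143, 4319 and 4797 in old MSCs, so the groups were far apart. The mean of 259 ± 42.3 in young MSCs (SD, n = 6) gave a log2 fold change of -4.10 with a standard error of 0.08 (limma, adjusted p = 1.2e-22), a 17.1-fold lower level. Per kilobase of exon, Rrm2 was the most abundant member in old MSCs at 1593 and in rejuvenated old MSCs at 2070 normalized counts. In young MSCs it had 93.5 per kilobase, and Pcna led with 919. Its partner Rrm1 had 2563 ± 83.1 in young and 3015 ± 132 in old MSCs (SD, n = 6), a log2 fold change of -0.23 (limma, adjusted p = 9.5e-06). Tk1 was lower in young MSCs, with 207 ± 17.5 against 459 ± 29.4 normalized counts (SD, n = 6) and a log2 fold change of -1.14. Tyms was higher, with 769 ± 51.1 against 504 ± 28.2 and a log2 fold change of 0.61.

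The licensing genes split between the groups. Cdt1 was higher in young MSCs, with 1092, 1134 and 1194 normalized counts against 362, 436 and 482 in old MSCs, a log2 fold change of 1.40 (limma, adjusted p = 8.7e-15). Its inhibitor Gmnn was lower, with 92.5, 106 and 147 against 228, 254 and 281, a log2 fold change of -1.18 (adjusted p = 1.0e-10). Neither pair of groups overlapped. Cdc6 was also lower in young MSCs (-0.66). Mcm2 (0.43), Mcm3 (0.93) and Mcm7 (0.75) were higher, Mcm4 (-0.82) and Mcm6 (-0.66) were lower, and Mcm5 (-0.14) was not called. Subunits of 1 ring thus differed in opposite directions, and Mcm3, Mcm4 and Mcm6 lie on chromosomes that shifted as a whole, as given below.

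With 41.6% of all genes called as higher and 44.1% as lower in this comparison, the counts by role describe the members named and show nothing particular to a role. Among the G1/S regulators Ccne1 was lower in young MSCs, with 135 ± 12.7 normalized counts against 449 ± 16.6 (SD, n = 6) and a log2 fold change of -1.73 (limma, adjusted p = 1.1e-17). E2f1 was lower as well, with 553, 594 and 621 in young against 1197, 1229 and 1305 in old MSCs, without overlap, at -1.06. E2f2 (0.10) and Ccne2 (0.00) were not called. Young MSCs had higher levels of 7 and lower levels of 2 of the 12 fork genes, led by Rfc5 (0.88), Rpa1 (0.68) and Pold1 (0.62). In helicase activation 3 of 4 were lower, at -0.55 to -0.56 (Mcm10, Cdc45 and Gins2). Pold1 and Cdc45 lie on chromosomes that shifted as a whole, and neither was called with the chromosome median removed, as given below.

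Among the repair genes, 6 of 9 members of recombination, crosslink and mismatch repair were lower in young MSCs, led by Fanca (-0.96), Exo1 (-0.90) and Rad51ap1 (-0.77), and only Blm was higher (0.56). The kinases Atm and Atr were higher, with 912 ± 53.4 against 467 ± 30.8 and 719 ± 30.0 against 381 ± 11.6 normalized counts (SD, n = 6), log2 fold changes of 0.97 and 0.92. Their downstream kinases Chek2 (-0.77) and Chek1 (-0.24) were lower. Xrcc6 was higher, with 1852 ± 83.3 against 1002 ± 32.7 (0.89), as was Xrcc5 (0.22). Prkdc and Parp1 were lower, at -1.09 and -0.88.

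Whole chromosomes shifted between young and old MSCs. The median log2 difference of all genes tested on a chromosome was -0.69 on chromosome 1, 0.61 on chromosome 7, -0.46 on chromosome 12 and -0.75 on chromosome 16, and these hold 15 of the 52 members. On other chromosomes with members it was smaller in size, such as -0.30 on chromosome 13, 0.22 on chromosome 17 and 0.20 on chromosomes 9 and 15. In a further fit the chromosome median was removed. For this, the median log2 level of a chromosome's genes in each library was set to that library's median over all genes tested. These are medians of levels and not of differences, so a member's shift can depart from the median difference of its chromosome. Mcm6 then went from -0.66 to 0.01 and was no longer called, and Mcm4 went from -0.82 to -0.11 and Prkdc from -1.09 to -0.38. Parp1 went from -0.88 to -0.21 and Exo1 from -0.90 to -0.23, the latter no longer called. The reverse held for Mcm3, from 0.93 to 1.60, and Xrcc5, from 0.22 to 0.89. On chromosome 7, Pold1 went from 0.62 to 0.07 and Blm from 0.56 to 0.01 and neither was called, while Ccne1 went from -1.73 to -2.28. Lig1 (0.24 to -0.32) and Rfc4 (-0.32 to 0.39) were called in the opposite direction, Cdc45 (-0.56 to 0.15) was no longer called, and Prim1 (-0.04 to 0.20) was called as higher. Rrm2, on chromosome 12, stayed at -3.69. Gmnn went from -1.18 to -0.84, Atr from 0.92 to 0.72, Xrcc6 from 0.89 to 0.66 and Msh6 from -0.14 to -0.48, all still called. Mcm4 and Prkdc lie head to head on chromosome 16, with 43 bases between their starts at 15637400 and 15637444 (mm10). In rejuvenated old against old MSCs no autosome's median difference went beyond 0.06 in size. Removing the chromosome median there lost the call of Rrm1, which went from 0.11 to 0.06 (limma, adjusted p = 0.33). It added Pole (0.17) and Orc6 (0.12) to the members called as higher.

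**Figure D5:**
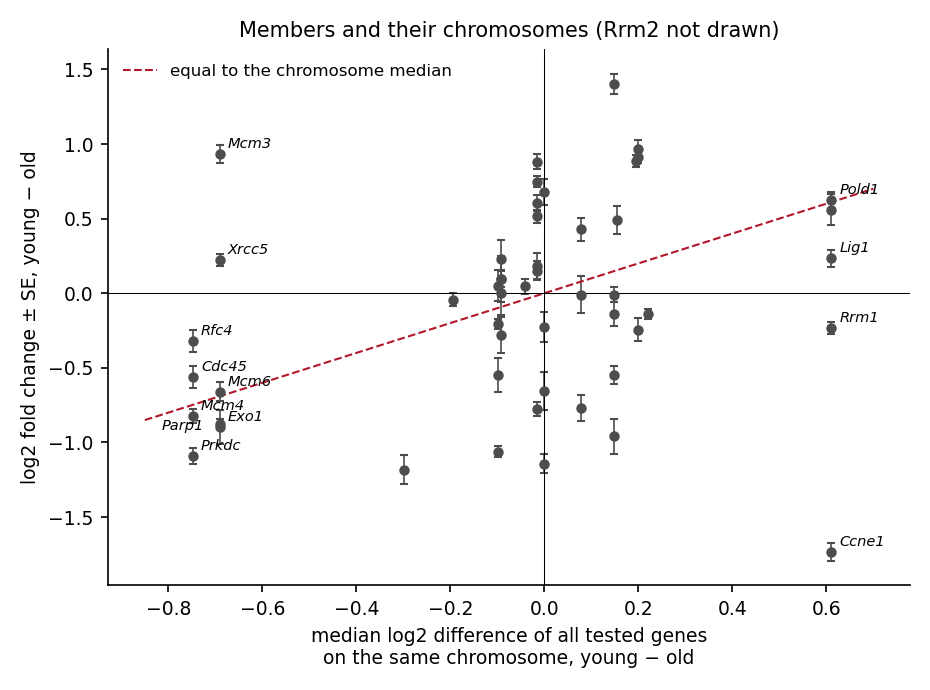
Log2 fold change with standard error of each member in young minus old MSCs (y axis) against the median log2 difference of all genes tested on the same chromosome (x axis). The dashed line marks equal values, and Rrm2 at -4.10 is not drawn. Members of chromosomes 1 and 16 stand at -0.69 and -0.75 and those of chromosome 7 at 0.61, where Mcm6, Mcm4 and Pold1 lie near the line and Mcm3, Xrcc5, Rrm1 and Ccne1 far from it.

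In rejuvenated old against young MSCs, 26 members were higher and 17 were lower, while over all genes tested 44.1% were higher and 41.5% were lower. The median of members was 0.13 and that of all genes 0.03. This comparison shares libraries with the other 2, so its values stand beside them and are not independent. Rrm2 (4.48), Ccne1 (1.95), Gmnn (1.66) and Tk1 (1.51) were higher in rejuvenated old MSCs, and these were farther from young MSCs than old MSCs were. Rpa1 was lower in rejuvenated old than in young MSCs (-1.25) and higher in young than in old MSCs (0.68), and so was also farther from young. For Tyms (-0.25), Xrcc6 (-0.62), Atr (-0.64) and Mcm3 (-0.74) the rejuvenated old level lay between those of old and young MSCs. Msh6 did not pass the test against young MSCs (-0.01, limma, adjusted p = 0.73), with 1389, 1449 and 1553 normalized counts in rejuvenated old and 1419, 1477 and 1495 in young MSCs. With the median of its chromosome, 17, removed from each library, it was higher in rejuvenated old than in young MSCs (0.29, limma, adjusted p = 1.4e-07).

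Promoters are shown for the members with the largest rise and fall among those with an E2F string, and for Mcm2 and Pcna, since E2F factors and the proteins that read the CHR element control many genes of S phase and mitosis. RefSeq windows of 300 bases (GRCm38.p6, 250 before the start and 50 after it) were matched by gene identifier for 43 of the 52 members. None was found for Gmnn, Mcm4, Gins1, Gins2, Pole, Ccne2, Fancd2, Exo1 and Prkdc. Capitals mark every match on either strand to the E2F strings TTTCCCGC, TTTCGCGC, TTTGCCGC or TTTGGCGC, the CHR string TTTGAA and the CCAAT box, and each line gives the plus or minus strand of the gene from 5′ to 3′.
E2f2, chr4:136172024-136172323, plus strand: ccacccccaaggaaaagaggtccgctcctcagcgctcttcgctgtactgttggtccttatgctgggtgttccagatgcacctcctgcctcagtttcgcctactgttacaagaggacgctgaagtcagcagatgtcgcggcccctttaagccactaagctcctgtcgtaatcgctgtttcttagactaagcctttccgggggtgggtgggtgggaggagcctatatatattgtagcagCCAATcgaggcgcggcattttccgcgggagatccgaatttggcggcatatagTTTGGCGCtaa
E2f2, second start, chr4:136180532-136180831, plus strand: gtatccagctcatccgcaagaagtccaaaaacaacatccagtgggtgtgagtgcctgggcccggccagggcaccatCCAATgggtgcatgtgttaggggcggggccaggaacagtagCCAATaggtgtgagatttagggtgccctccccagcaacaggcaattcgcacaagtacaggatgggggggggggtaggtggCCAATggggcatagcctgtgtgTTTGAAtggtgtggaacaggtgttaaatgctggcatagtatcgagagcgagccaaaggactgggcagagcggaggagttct
Cdc6, chr11:98907901-98908200, plus strand: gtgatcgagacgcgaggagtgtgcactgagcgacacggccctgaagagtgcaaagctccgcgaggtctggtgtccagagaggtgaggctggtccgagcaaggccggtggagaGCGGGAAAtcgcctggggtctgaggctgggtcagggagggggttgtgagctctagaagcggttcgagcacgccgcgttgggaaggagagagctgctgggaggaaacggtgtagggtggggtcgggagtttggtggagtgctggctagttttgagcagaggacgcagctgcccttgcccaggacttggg
Mcm2, chr6:88898731-88899030, minus strand: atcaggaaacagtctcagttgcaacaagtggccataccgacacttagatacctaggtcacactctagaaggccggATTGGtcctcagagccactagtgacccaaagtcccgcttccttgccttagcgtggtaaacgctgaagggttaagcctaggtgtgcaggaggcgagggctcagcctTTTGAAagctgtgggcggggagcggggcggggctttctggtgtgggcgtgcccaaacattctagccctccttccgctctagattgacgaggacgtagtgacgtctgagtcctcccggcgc
Pcna, chr2:132253131-132253430, minus strand: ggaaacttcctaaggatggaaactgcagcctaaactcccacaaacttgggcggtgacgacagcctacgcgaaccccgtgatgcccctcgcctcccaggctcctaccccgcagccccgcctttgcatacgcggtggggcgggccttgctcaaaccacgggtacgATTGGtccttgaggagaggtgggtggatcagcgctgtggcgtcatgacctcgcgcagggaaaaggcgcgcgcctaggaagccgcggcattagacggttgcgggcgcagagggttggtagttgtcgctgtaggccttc

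The first E2f2 window holds an E2F string 40 bases after the start and a CCAAT box before it, and the Cdc6 window holds an E2F string 138 bases before the start used for that window. The Cdc6 window begins at 98907901 and so lies inside the gene, whose RefSeq position begins at 98907709. The Mcm2 window holds the CHR string and a CCAAT box, and the Pcna window a CCAAT box alone. Of the 43 members with a window, 16 (37.2%) held an E2F string, against 2.61% of all 27025 genes with a window and 4.49% of the 10951 of these that were tested. The CHR string was in 4 members (9.30%), against 14.3% of the tested genes, and the CCAAT box in 28 (65.1%), against 42.7%. A match describes these letters and is not a bound site. In rejuvenated old against old MSCs 7 of the 16 members with an E2F string were higher and 3 were lower, with a median log2 fold change of 0.11. Among the 27 without one 12 were higher and 1 was lower, with a median of 0.11 as well. In young against old MSCs the medians were 0.23 with 8 higher and 4 lower of 16, and -0.23 with 8 higher and 15 lower of 27, and this difference was not tested.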

How the data were processed

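RNA of 18 MSC cultures, 6 for each of 3 groups, was sequenced by the authors from stranded mRNA libraries. Per the paper's methods, HISAT2 was used by the authors for alignment to mm10, followed by StringTie, featureCounts and DESeq2 on Galaxy for assembly, counting and normalization. The versions, the annotation and the strand setting are not given in the sources used here. Each deposited value is a signal, the whole reads of a gene divided by its library's size factor, and replicates were not pooled. Of the values, 100% came out as whole reads within 0.01 of a read.

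The test of log2(value + 1) used limma 3.58.1 in R 4.3.3, with a mean for each of the 3 groups, a prior variance that follows the mean and Benjamini-Hochberg adjustment over the 14353 genes averaging 10 or more. Group means were subtracted on that scale, where changes of low genes come out too small. Count tests used edgeR 4.0.16 and DESeq2 1.42.0 on the recovered reads, which called 6213 and 6345 genes between rejuvenated old and old MSCs (limma 5971). Summaries and plots used Python 3.11.15 with pandas 2.3.3 and matplotlib 3.10.9. The fits were tested on simulated data. Exon lengths and overlaps came from GENCODE's mm10 annotation, and promoters and positions from RefSeq (GRCm38.p6). Of the members, 19 share exon bases with a gene of the opposite strand (Fen1 and Gins2 over most of their exons) and none with a gene of the same strand.

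The members and lists were chosen with earlier results of these data known. From each further list the text names the called genes that rose most (2) and fell most (2) in rejuvenated old against old MSCs, and Mki67, Top2a, Cdk1, Cdkn1a, Cdkn2a, Trp53 and Rb1. Cd34, Thy1, Ptprc, Adgre1, Xist and the Y-linked genes were named after their values were seen. Of the other marker lists, 3 of 7 endothelial, 1 of 5 osteoclast and 1 of 10 lymphoid, erythroid and progenitor markers could be tested. Alternatives covered the pseudocount, the filter, the scaling, the chromosome median, the groups in the fit, the prior variance, a block for the replicate number, the test, the threshold and leaving out each library. The study's other assays were not analysed here.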

Additional observations from a re-analysis of the deposited data

Results flagged for a closer look

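In each group of 6 libraries and each member, the gap between the highest or lowest library and the next was compared with the whole range, and 7 of 156 such groups had a library past Dixon's 95% critical value for 6 values. Chance gives about 1 in 20. The 7 are single values in 7 members. In old MSCs, Pcna was low in replicate 4 (2417 normalized counts against 2542 to 2612 in the others), E2f2 was low in replicate 5 (22.1 against 27.6 to 30.1) and Parp1 was low in replicate 2 (2626 against 2776 to 2863). In rejuvenated old MSCs, Rfc3 was high in replicate 5 (685 against 580 to 614), Atm was low in the same replicate (373 against 455 to 499) and Rfc4 was low in replicate 6 (228 against 250.1 to 260). In young MSCs, Msh6 was low in replicate 4 (1419 against 1467 to 1495).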

How the results depend on the processing

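In rejuvenated old against old MSCs, 15 members in place of 23 were higher at an adjusted p under 0.01. Leaving out 1 library at a time gave 19 to 25 members higher, 4 to 5 lower and a median log2 fold change of 0.097 to 0.14. Of the 27 calls, 23 were kept in each alternative that tested the gene, other than the stricter threshold, and those of Rfc4, Rpa2, Rrm1 and Chek1 were not. E2f2, one of the 23, was not tested with a mean of at least 50. edgeR's quasi-likelihood test called 24 higher and 4 lower, and DESeq2 24 and 5. In young against old MSCs, leaving out a library gave 16 to 18 higher, 22 to 24 lower and a median of -0.064 to -0.022. The median moved to -0.09 with a mean of at least 50, and to 0.047 with the same total in each library. Removing the chromosome median turned the sign of 5 members in young against old MSCs, of which Prim1 (0.20), Rfc4 (0.39) and Lig1 (-0.32) were called in the new direction and Mcm6 (0.0051) and Cdc45 (0.15) were no longer called. In rejuvenated old against young MSCs it turned the sign of Msh6 (0.29) and Lig1 (0.48), which were then called as higher, and of Prim1 (-0.088), Rfc4 (-0.17) and Pold1 (0.10), which were no longer called. An alternative chosen after seeing the data left out chromosomes 1, 7, 12 and 16, and 12 of the 37 members left were then higher in young MSCs and 14 were lower. Of the 11579 genes left, 4964 were higher and 4840 were lower. The other counts of called members in this section are given without shares over all genes and describe the members only. In rejuvenated old against young MSCs, leaving out a library gave 25 to 27 higher, 17 lower each time and a median of 0.12 to 0.16, and the median moved to 0.044 with the same total in each library. With the replicate block 23 members rose and 5 fell in rejuvenated old against old MSCs, 17 and 23 in young against old MSCs, and 26 and 17 in rejuvenated old against young MSCs. Same-numbered libraries deviated from their group means with a correlation of -0.15 to 0.07, so no pairing by number was seen. Such values cannot show whether same-numbered libraries were handled together, since a weak shared effect could give them too. With a shorter E2F core (GCGGGAA or GCGCGAA, or the letters GGCGGGA), 27 of 43 members held a match (62.8%), against 16.1% of all genes with a window and 29.1% of the tested ones. The cause of these changes was not tested, except that fewer members entered without the 4 chromosomes. At 13.5 to 40.8 normalized counts, E2f2 had the fewest reads and its change has the least precision.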
